A study of Mus musculus with 9 samples.

Results

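Oxidative phosphorylation is carried out by 5 protein complexes of the inner mitochondrial membrane, and most of their subunits are encoded in the nucleus. The members described here are the protein-coding genes whose symbols begin with Ndufa, Ndufb, Ndufc, Ndufs, Ndufv, Uqcr, Cox4i, Cox5, Cox6, Cox7, Cox8 or Atp5, together with *Sdha*, *Sdhb*, *Sdhc*, *Sdhd* and *Cyc1*. The assembly factors named Ndufaf were left out. This rule uses symbols and no measured value, and it found 90 of the 56748 genes of the table, which holds 21970 protein-coding genes. They comprise 38 genes of complex I, 4 of complex II, 9 of complex III, 19 of complex IV and 18 of complex V. The other 2, *Cox7a2l* and *Ndufa4l2*, are related in sequence to subunits of complex IV and were kept apart. *Ndufa4* was placed in complex IV, of which its protein is a subunit.

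Complex I (NADH dehydrogenase) and complex II (succinate dehydrogenase) pass electrons from nutrients to coenzyme Q, complex III (cytochrome bc1) passes them on to cytochrome c, and complex IV (cytochrome c oxidase) gives them to oxygen. Complexes I, III and IV pump protons, and complex V (ATP synthase) uses the proton gradient to make ATP. The mitochondrial genome encodes a few core subunits of complexes I, III, IV and V, while complex II is wholly nuclear. White adipocytes have few mitochondria beside brown adipocytes or muscle, and their respiration supplies ATP and precursors for lipid synthesis. Some subunits of complex IV exist as a ubiquitous form and a form found mainly in muscle or brown fat.

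RNA of epididymal adipose tissue, the visceral fat around the epididymis, was sequenced in male C57BL/6J wild-type mice that began a high-fat diet (HFD) at 8 weeks of age. Mice at the end of 8 weeks of HFD are called Pre, and mice then given a standard diet (SD) for 1 or 2 weeks are called WL1 and WL2. Each phase had 3 libraries, all mice had been fed HFD, and no library analysed here came from mice fed SD throughout or kept on HFD for the same total time. Age and time after the start of HFD therefore differ between the phases along with the diet, and these cannot be told apart. The labels do not say whether the 3 samples of a phase came from separate animals or from pools, so p-values measure the spread between these samples. Since whole tissue was sequenced, fewer adipocytes and less RNA of a gene per adipocyte cannot be told apart.

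The libraries held 16434450 to 22729072 counted reads, of which the 90 members took 1.02% to 1.27% in Pre, 0.853% to 1.02% in WL1 and 1.02% to 1.19% in WL2. The defining adipocyte genes were abundant in every phase, with 1352 to 2158 FPKM of *Adipoq* as phase means (FPKM are fragments per kilobase of gene length, scaled to the total of the library). Markers of cell types also differed between the phases. The summed FPKM of 12 macrophage markers ranged from 975 to 1793 in Pre, from 2118 to 4296 in WL1 and from 1097 to 2355 in WL2. Of the 12, 3 passed the test upward in WL1 (25%, against 2.6% of all tested genes). The sum of 14 adipocyte markers ranged from 11545 to 15072 in Pre, from 7810 to 10370 in WL1 and from 13289 to 14499 in WL2. The brown adipocyte gene *Ucp1* had 4, 9 and 5 reads in the whole of Pre, WL1 and WL2, and *Zic1* had 0 reads. The members also shifted together within a phase. In Pre replicate 1, 84 of the 85 members with reads in every library were above their own mean over the 9 libraries, and in WL1 replicate 1 only 3 of the 85 were. For the members, the counts of calls, the medians and the calls of named genes are therefore given also without single libraries, and the FPKM levels, the shares of isoforms and the sums of markers are given for all libraries.

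Of the 90 members, 86 reached 0.5 CPM in at least 1 library and were tested (CPM are counts scaled to a common library size of 10 to the power of 6 reads). The other 4 had no read in any library. They are *Cox7b2* and *Cox8c*, isoforms of complex IV best known from the testis, *Ndufb11b*, and a second entry named *Atp5o*. With 3 reads as the limit that a count of 0 allows, each of these was below 0.132 to 0.183 CPM, depending on the library. That limit, like every count here, covers counting error only. *Cox5b-ps* is listed as protein-coding and was tested, but its sequence is a copy of *Cox5b*, so reads of the pair may have been divided between them and its values are uncertain.

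Levels per gene length, on the FPKM scale, spread widely within each complex. The highest mean over the 9 libraries was found for *Cox8a*, a small subunit of complex IV, with 611 FPKM. It was followed by *Cox6a1* with 473 FPKM and *Cox4i1*, the largest nuclear subunit of complex IV, with 264 FPKM. In complex V the catalytic beta subunit *Atp5b* led with 258 FPKM and the alpha subunit *Atp5a1* had 235 FPKM. *Uqcr10* led complex III with 152 FPKM, *Ndufa2* led complex I with 135 FPKM and the membrane anchor *Sdhd* led complex II with 91.9 FPKM. Among the members with any read, the lowest were *Cox6a2* with 0.956 FPKM, *Ndufb2* with 1.18 FPKM and *Cox6b2* with 2.54 FPKM. The gene lengths behind these values are those of the authors' table, in which *Ndufb2* has 5628 bases and *Cox8a* 619, so a low FPKM of a gene with a long annotated model is uncertain.

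Summed over all members, the level was highest in Pre and lowest in WL1 for each of the 5 complexes. All members together had 8444, 7200 and 6220 FPKM in the Pre libraries, 4724, 6072 and 5545 in WL1 and 6899, 6176 and 5588 in WL2. On this scale the Pre libraries were all above the WL1 libraries, and WL2 overlapped with both. The phase means were 7288 ± 1115, 5447 ± 679 and 6221 ± 656 FPKM (SD, n = 3). The WL1 mean was 0.745 times the Pre mean for complex I, 0.796 times for complex II, 0.709 times for complex III, 0.749 times for complex IV and 0.743 times for complex V. The WL2 mean was between 0.814 times (complex III) and 0.968 times (complex II) the Pre mean. The 2 related proteins together had 109 ± 12.8, 110 ± 13 and 103 ± 11.6 FPKM (SD, n = 3). The WL1 mean over all members was 0.747 times the Pre mean, 0.812 times without Pre replicate 1 and 0.797 times without WL1 replicate 1. These sums carry no test, and they are led by a few abundant genes of complexes IV and V. Relative to the summed counts, the total behind the FPKM was 0.995 to 1.01 in Pre, 1.07 to 1.11 in WL1 and 1.11 to 1.12 in WL2, so the FPKM of the later phases were divided by a relatively larger total. As a share of the counts, the members had 1.02% in Pre replicate 3 and 1.02% in WL1 replicate 2. Pre and WL1 were therefore not apart in that share, unlike in the summed FPKM.

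**Figure D1:**
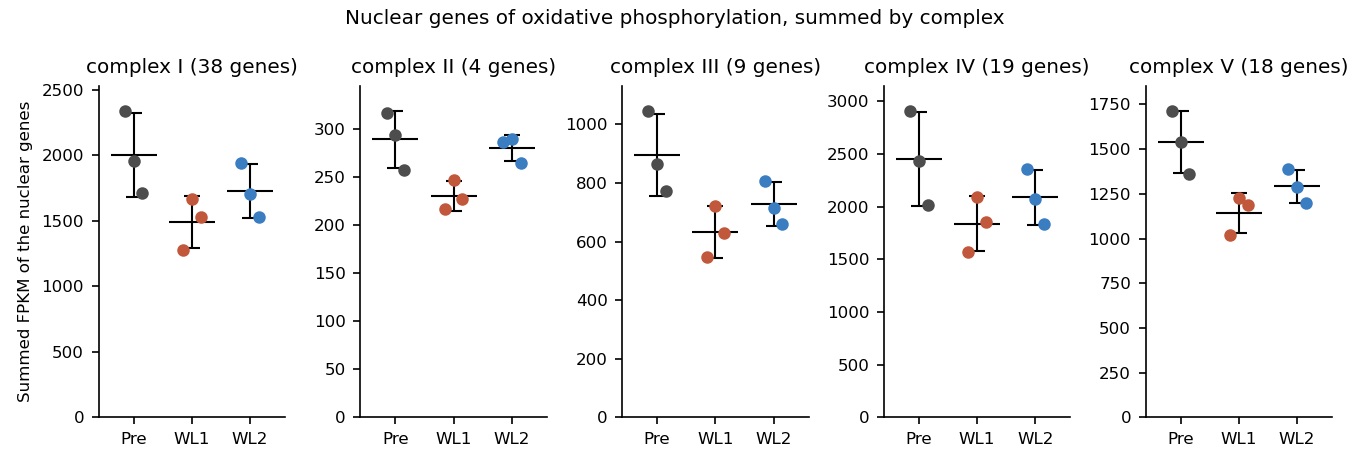
Summed FPKM (y axis, from 0, a scale of its own in each panel) of the nuclear genes of each complex in the 3 libraries of Pre, WL1 and WL2, with points for libraries and bars for mean and SD. In complexes I, II, III and V every Pre library lies above every WL1 library, while in complex IV the highest WL1 library (2091 FPKM) lies above the lowest Pre library (2021 FPKM).

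After 1 week of SD the nuclear genes of oxidative phosphorylation were lower almost throughout. Of the 86 tested members, 84 had a lower fitted level in WL1 than in Pre, and the median log2 fold change of the 86 was -0.39, against a median of 0.02 over the 18510 genes tested. With edgeR's quasi-likelihood test and an adjusted p under 0.05, 13 of the 86 members fell (15.1%) against 4.69% of all tested genes, and 0 rose, also with DESeq2, against 2.6% of all tested genes. At an unadjusted p under 0.05 the number was 50 of 86 in both directions together, against 4496 of the 18510 genes tested. In 39 of the 86 members (45.3%) every WL1 library was below every Pre library, against 13.9% of all tested genes, and in 0 members was every WL1 library above, against 14.7% of all tested genes. The 2 members with a fitted level above Pre were *Cox7a2l* (log2 fold change 0.08, adjusted p = 0.802, edgeR) and *Cox6b2* (0.01, adjusted p = 0.985), and the sign of both turned when single libraries were left out.

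The number of members that fell in WL1 depended on the libraries. It was 1 (*Ndufa11*) without Pre replicate 1, 6 without Pre replicate 2 and 20 without Pre replicate 3. It was 2, 4 and 2 without WL1 replicates 1, 2 and 3, and it was 3 and 7 without WL2 replicates 2 and 3, which enter through the shared estimate of the spread. The median log2 fold change stayed between -0.492 and -0.270 under these omissions. It was -0.296 with no scaling factors, where the median of all genes was 0.120. Without Pre replicate 1, 82 of the 86 members were below 0 and 39 did not overlap downward, against 18% of all tested genes. Without WL1 replicate 1, 83 were below 0 and 41 did not overlap downward, against 17.7% of all tested genes. DESeq2 called 31 members lower, and a fit of the Pre and WL1 libraries alone called 3. The calls over all genes, in both directions together, moved as well. They were 1350 in the main fit, 2344 with DESeq2, 992 with these 2 phases alone and 512 to 1500 with a library left out.

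The members that fell belong to complexes I, III, IV and V. Of the tested genes, 3 of 37 passed in complex I (8.11%), 0 of 4 in complex II, 4 of 9 in complex III (44.4%), 2 of 17 in complex IV (11.8%) and 4 of 17 in complex V (23.5%). Of all tested genes, 4.69% fell. The median log2 fold changes of the complexes were close to each other, at -0.41, -0.30, -0.51, -0.39 and -0.38 in that order, and differences between the complexes were not tested. Without Pre replicate 1 the calls were 1 in complex I and 0 in each other complex, and without WL1 replicate 1 they were 1 in complex I, 1 in complex IV and 0 in the others.

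**Figure D2:**
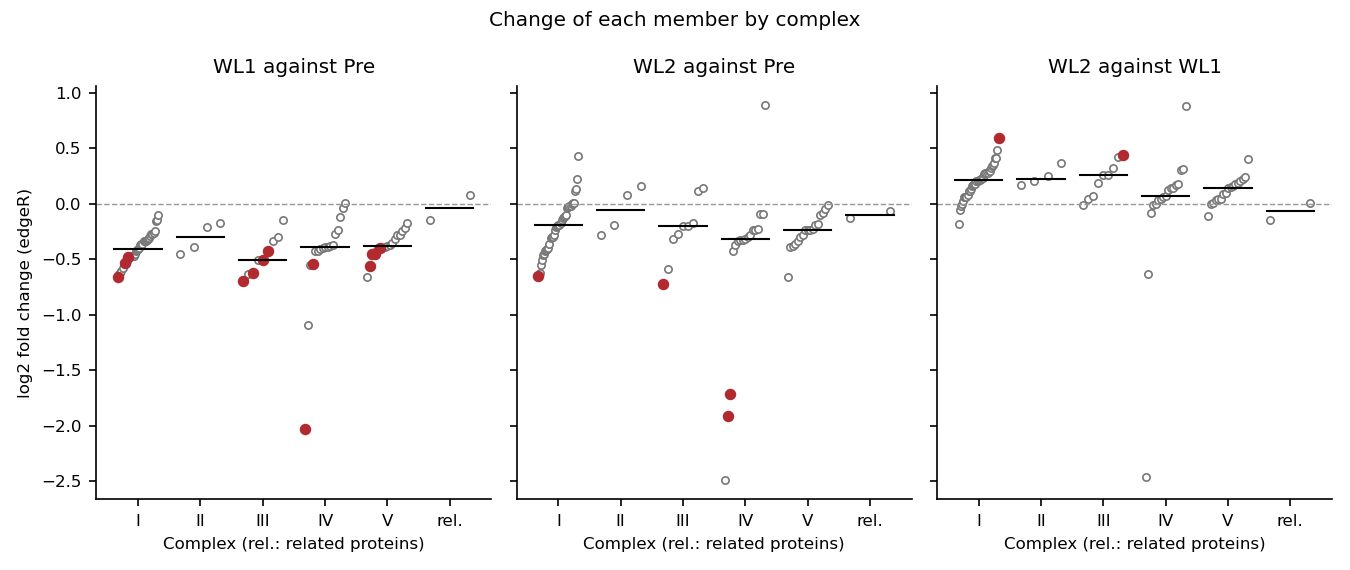
Log2 fold change (y axis, edgeR) of each of the 86 tested members by complex (x axis) in the 3 comparisons, with filled points for adjusted p under 0.05, open points for the others and a line at the median of each complex. Nearly all points lie below 0 for WL1 against Pre, the points for WL2 against Pre lie closer to 0, and 74 of 86 lie above 0 for WL2 against WL1.

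Promoter sequences of the members were read from RefSeq, to show what stands before genes of one pathway that moved together. Of 89 different symbols, 88 matched a RefSeq gene on GRCm38.p6 and 70 had a promoter window, from 250 bases before to 50 bases after the start of transcription. The letters of 7 motifs were searched on both strands. GCGCATGC, the motif of NRF1, a factor known to control many respiratory chain genes, occurred in the windows of 14.3% of the members and of 3.05% of all genes. CCGGAAG, of the ETS family to which GABPA belongs, occurred in 24.3% of the members and 9.93% of all genes. AAGATGGCG, of YY1, occurred in 10% against 1.64%, and CAAGGTCA, of the estrogen-related receptors, in 5.71% against 1.76%. TGACGTCA, of CREB, occurred in 5.71% against 2.03%, GGGCGG, of the Sp family, in 41.4% against 38.2%, and TATAAA, the TATA box, in 11.4% against 15.7%. A match of letters is a description of the sequence and no evidence of binding.

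The stretches below are from the members that passed the threshold in a comparison and hold one of these motifs, the Sp motif left aside, before the start of transcription. Among the members past the threshold, *Uqcrc1* (NRF1), *Cox8b* (TATA box) and *Ndufs7* (YY1) held further matches that do not lie wholly before the start and are not shown. Capitals mark the motif, on either strand, and each is written 5′ to 3′ on the strand of its gene.
Ndufa11, NRF1 motif (2 overlapping matches, 1 on each strand of the window), chr17:56717664-56717751, + strand: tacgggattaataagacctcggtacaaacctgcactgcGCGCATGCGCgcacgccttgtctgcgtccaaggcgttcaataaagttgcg
Ndufa11, CREB motif, chr17:56717564-56717651, + strand: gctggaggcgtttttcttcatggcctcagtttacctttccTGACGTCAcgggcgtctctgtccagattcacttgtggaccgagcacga
Uqcrfs1, CREB motif, chr13:30545317-30545385, - strand: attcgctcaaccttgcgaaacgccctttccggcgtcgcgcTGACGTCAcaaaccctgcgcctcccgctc
Atp5g3, estrogen-related receptor motif, chr2:73911331-73911418, - strand: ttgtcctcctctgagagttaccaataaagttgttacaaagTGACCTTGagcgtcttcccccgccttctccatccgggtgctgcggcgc
Ndufs7, TATA box letters, chr10:80249310-80249395, + strand: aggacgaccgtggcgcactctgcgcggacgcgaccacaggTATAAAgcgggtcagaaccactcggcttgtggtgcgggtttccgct
The coordinates are those of RefSeq on GRCm38.p6 and not of the authors' table.

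In complex I, *Ndufa11*, an accessory subunit of the membrane arm whose promoter is shown with the NRF1 and CREB motifs, fell the most of the genes that passed. It had 51.5, 48.5 and 45.2 CPM in the Pre libraries, 27.6, 32.5 and 31.5 in WL1 and 32.8, 28.7 and 31.1 in WL2. All 3 Pre libraries were above all 6 later libraries. The log2 fold change was -0.66 ± 0.11 (SE) in WL1 (adjusted p = 0.00739, edgeR) and -0.65 ± 0.11 in WL2 (adjusted p = 0.00487, edgeR). It was called under all 19 alternative settings in both comparisons. *Ndufv1*, the core subunit that binds NADH, had 152, 143 and 119 CPM in Pre, 86.3, 106 and 93.2 in WL1 and 134, 129 and 117 in WL2. It fell by 0.53 on the log2 scale in WL1 (SE 0.13, adjusted p = 0.0317, edgeR), and its WL2 libraries overlapped with Pre. *Ndufab1*, the mitochondrial acyl carrier protein, which serves both complex I and mitochondrial fatty acid synthesis, went from 102 ± 11.1 to 72.6 ± 7.96 CPM (SD, n = 3; log2 fold change -0.48, adjusted p = 0.0339, edgeR). The call of *Ndufv1* was lost without Pre replicate 1 or 2, WL1 replicate 1 or 3 or WL2 replicate 2, and that of *Ndufab1* without Pre replicate 1, WL1 replicate 1 or 3 or WL2 replicate 2 or 3. Of the 37 tested complex I genes, 37 had a lower fitted level in WL1, between -0.66 and -0.10 on the log2 scale. In 18 of the 37 every WL1 library was below every Pre library, against 13.9% of all tested genes. *Ndufa2*, the most abundant per length, had 131, 93.8 and 75.4 CPM in Pre and 53.7, 77.1 and 77.5 in WL1, with overlap (log2 fold change -0.52, adjusted p = 0.193, edgeR). The core subunits, which carry the redox groups, had a median log2 fold change of -0.32 over 7 genes, and the accessory subunits of -0.44 over 30 genes.

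Complex II had no gene past the threshold in any of the 3 comparisons by edgeR. Under the 19 alternatives *Sdhc* was called lower in WL1 than in Pre in 5, *Sdhd* in 1, and *Sdha* was called for WL2 against WL1 in 1. *Sdha*, the flavoprotein that oxidizes succinate, had 420, 368 and 366 CPM in Pre, 342, 346 and 311 in WL1 and 423, 450 and 419 in WL2. Its WL1 libraries were below the other phases without overlap, but the log2 fold change of -0.21 did not pass (adjusted p = 0.249, edgeR). *Sdhb*, the iron-sulfur subunit, had 107 ± 14.4 CPM in Pre, 95.2 ± 11.4 in WL1 and 114 ± 10.3 in WL2 (SD, n = 3). The membrane anchors *Sdhc* and *Sdhd* had log2 fold changes of -0.45 (adjusted p = 0.0602, edgeR) and -0.39 (adjusted p = 0.098, edgeR) in WL1, without overlap between Pre and WL1. *Sdha* was 0.37 higher on the log2 scale in WL2 than in WL1 (adjusted p = 0.074, edgeR).

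In complex III, the falls included both nuclear subunits with a redox group. *Cyc1*, cytochrome c1, had 181, 176 and 141 CPM in Pre, 101, 115 and 108 in WL1 and 151, 152 and 131 in WL2. Every WL1 library was below every library of the other phases, and the log2 fold change against Pre was -0.62 ± 0.12 (SE, adjusted p = 0.0171, edgeR). *Uqcrfs1*, the Rieske iron-sulfur protein, whose promoter holds the CREB letters shown above, had 166, 166 and 136 CPM in Pre and 97, 122 and 109 in WL1 (log2 fold change -0.51, adjusted p = 0.0378, edgeR). *Uqcrq*, an accessory subunit, had 216, 171 and 146 CPM in Pre, 89.8, 124 and 114 in WL1 and 129, 95 and 101 in WL2. It fell by 0.70 on the log2 scale in WL1 (adjusted p = 0.042, edgeR) and by 0.72 in WL2 (adjusted p = 0.0317, edgeR), with all later libraries below Pre. The core protein *Uqcrc1* also fell in WL1 (log2 fold change -0.43, adjusted p = 0.045, edgeR). It stands outside the rule for named genes and is named because it passed. Leaving out Pre replicate 1 or WL1 replicate 1 or 3 ended the calls of all 4 in WL1, and leaving out Pre replicate 2, WL1 replicate 2 or WL2 replicate 2 ended them for *Uqcrfs1*, *Uqcrq* and *Uqcrc1*. Without WL2 replicate 3 those of *Uqcrq* and *Uqcrc1* were lost, and without WL2 replicate 1 that of *Uqcrc1*. The call of *Uqcrq* in WL2 was lost without Pre replicate 1 or 2 or WL2 replicate 2 or 3. *Uqcr10*, the most abundant of the complex per length, had 108 ± 20.3 CPM in Pre and 85.7 ± 16.2 in WL1 (SD, n = 3) and did not pass.

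In complex V, the genes that fell in WL1 encode the alpha, beta and gamma subunits of the catalytic F1 part and 1 of the genes of subunit c, which forms the rotor ring in the membrane. *Atp5b*, the catalytic beta subunit, had 1437, 1387 and 1247 CPM in Pre, 932, 1028 and 1021 in WL1 and 1165, 1173 and 1128 in WL2. The 3 phases did not overlap with each other, and WL2 lay between WL1 and Pre. The log2 fold change was -0.45 ± 0.10 (SE) in WL1 (adjusted p = 0.0304, edgeR) and -0.23 in WL2 (adjusted p = 0.19, edgeR). *Atp5a1*, named because it passed, had a log2 fold change of -0.40 (adjusted p = 0.0425, edgeR), and *Atp5c1* of -0.45 (adjusted p = 0.0292, edgeR). *Atp5c1* had 226, 248 and 221 CPM in Pre, 154, 181 and 173 in WL1 and 232, 224 and 213 in WL2, so that its WL2 libraries overlapped with Pre and not with WL1. Of the genes of subunit c, which encode the same mature protein, *Atp5g3* fell in WL1 from 305 ± 44.9 to 207 ± 22.8 CPM (SD, n = 3; log2 fold change -0.56, adjusted p = 0.049, edgeR). *Atp5g1* (-0.25, adjusted p = 0.553) and *Atp5g2* (-0.17, adjusted p = 0.553) did not pass by the same test. The calls of the 4 genes were lost on leaving out Pre replicate 1 or 2, any 1 of the WL1 replicates or WL2 replicate 2, and for *Atp5a1*, *Atp5b* and *Atp5g3* also WL2 replicate 3. On the FPKM scale *Atp5g3* made up 66.6%, 62.3% and 64.6% of the subunit c sum in the Pre libraries, 60.2%, 58.8% and 56.6% in WL1 and 58.7%, 61.2% and 60% in WL2. All later libraries were below Pre in this share, which carries no test.

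**Figure D3:**
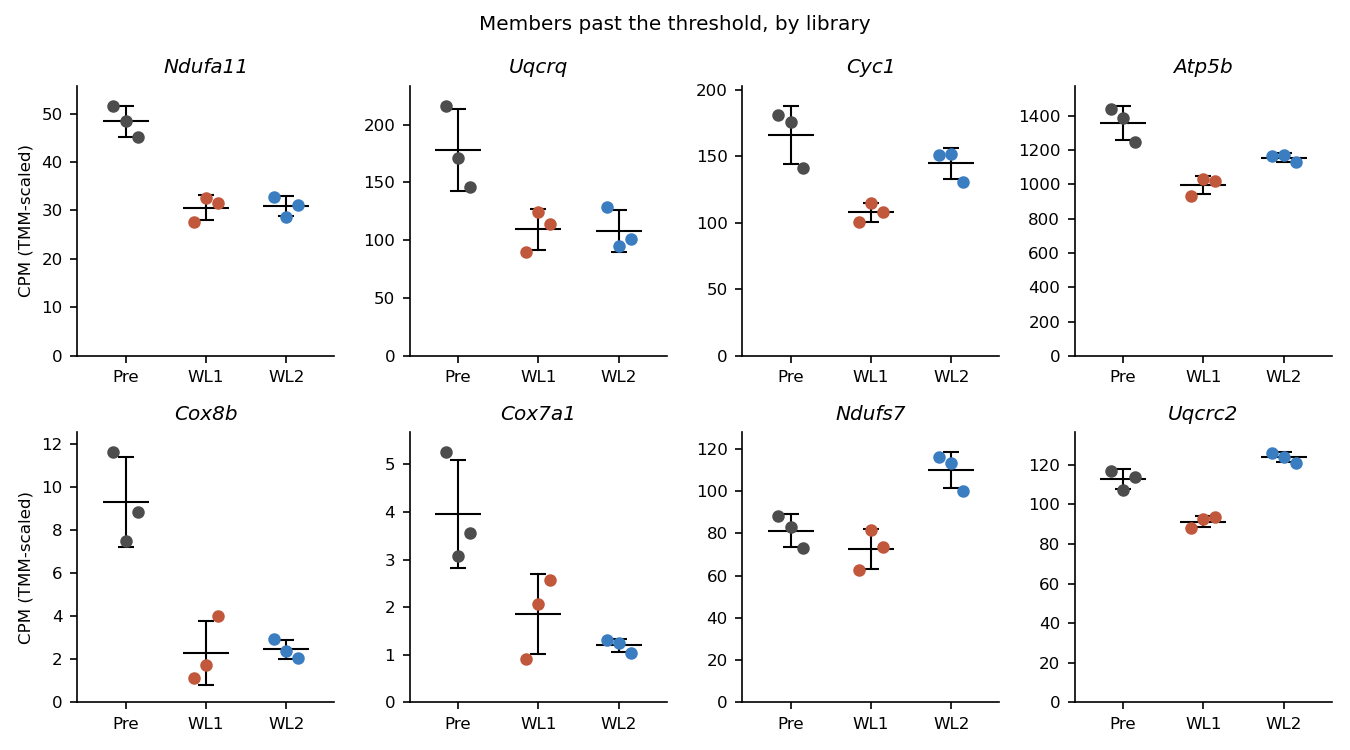
TMM-scaled CPM (y axis, from 0, a scale of its own in each panel) of 8 members past the threshold in at least 1 comparison, with points for the 3 libraries of each phase and bars for mean and SD. In WL2 *Ndufa11* and *Uqcrq* stay low, and *Cox8b* and *Cox7a1* are far below Pre. The WL2 means of *Cyc1* and *Atp5b* lie between those of WL1 and Pre, and the WL2 libraries of *Cyc1* overlap with Pre. *Ndufs7* and *Uqcrc2* are higher in WL2 than in WL1.

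The largest falls of all were in the tissue isoforms of complex IV. *Cox8b*, the form of subunit 8 found in heart, skeletal muscle and brown fat, had 11.6, 7.49 and 8.86 CPM in Pre, 1.14, 1.74 and 3.99 in WL1 and 2.95, 2.38 and 2.08 in WL2. In reads these were 197, 136 and 192, then 21, 38 and 71, then 54, 42 and 36. It fell by 2.03 on the log2 scale in WL1 (SE 0.40, adjusted p = 0.0156, edgeR) and by 1.91 in WL2 (SE 0.39, adjusted p = 0.0138, edgeR), with no overlap in either comparison. The call in WL1 was lost without Pre replicate 1 or without WL1 replicate 2, and the call in WL2 without WL2 replicate 2 or 3. *Cox7a1*, the muscle and brown fat form of subunit 7a, had 5.25, 3.08 and 3.55 CPM in Pre, 0.922, 2.07 and 2.58 in WL1 and 1.31, 1.25 and 1.04 in WL2. It did not pass in WL1 (log2 fold change -1.09, adjusted p = 0.11, edgeR) and fell by 1.71 in WL2 (SE 0.39, adjusted p = 0.0206, edgeR), a call lost when Pre replicate 1, WL2 replicate 2 or WL2 replicate 3 was omitted. *Cox6a2*, the form of subunit 6a in heart and skeletal muscle, had 15, 17 and 24 reads in Pre, 4, 28 and 24 in WL1 and 5, 4 and 0 in WL2, and passed in no comparison (adjusted p = 0.0942 in WL2 against Pre, edgeR).

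The ubiquitous partners did not pass in WL1, and differences between isoform and partner were not tested. *Cox8a* had a log2 fold change of -0.39 in WL1 (adjusted p = 0.222, edgeR) and *Cox7a2* of -0.43 (adjusted p = 0.164, edgeR). *Cox6a1* had -0.37 (adjusted p = 0.217) and *Cox4i1* -0.41 (adjusted p = 0.132) in the same fit. On the FPKM scale, *Cox8b* made up 3.57%, 2.75% and 4.11% of the sum of *Cox8b* and *Cox8a* in the Pre libraries, 0.659%, 0.734% and 2.06% in WL1 and 1.01%, 0.971% and 1% in WL2. The share of *Cox7a1* with *Cox7a2* was 6.81%, 5.06% and 6.68%, then 2.51%, 3.91% and 5.31%, then 2.31%, 2.46% and 2.47%. For *Cox8b*, all 6 later libraries lie below Pre, and for *Cox7a1* the highest WL1 library overlaps with the lowest Pre library.

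Other isoforms of complex IV did not follow this pattern. *Cox6b2*, an isoform known from the testis, had 2.53, 2.09 and 2.35 CPM in Pre, 2.28, 1.79 and 2.98 in WL1 and 3.83, 4.81 and 4.34 in WL2. Every WL2 library was above all others, and the log2 fold change in WL2 against Pre was 0.89 ± 0.25 (SE, adjusted p = 0.0505, edgeR), just outside the threshold. Its share with *Cox6b1* was 0.743% ± 0.119 in Pre and 1.72% ± 0.381 in WL2 (SD, n = 3). *Cox4i2*, a form known from the lung and from low oxygen, made up 2.59% ± 0.243, 2.59% ± 0.973 and 2.29% ± 0.635 of its sum with *Cox4i1* (SD, n = 3). *Cox7b* had 76.9 ± 15.4, 70.7 ± 7.75 and 72.4 ± 10.7 CPM (SD, n = 3), and its partner *Cox7b2* had no read. *Ndufa4* fell in WL1 from 198 ± 30.9 to 136 ± 14.1 CPM (SD, n = 3; log2 fold change -0.54, adjusted p = 0.0449, edgeR). That call was lost without Pre replicate 1 or 2, any 1 of the WL1 replicates or WL2 replicate 2 or 3. *Ndufa4l2*, its relative known from low oxygen, had 22.5 ± 2.53, 20.3 ± 5.59 and 20.5 ± 4.67 CPM (SD, n = 3).

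**Figure D4:**
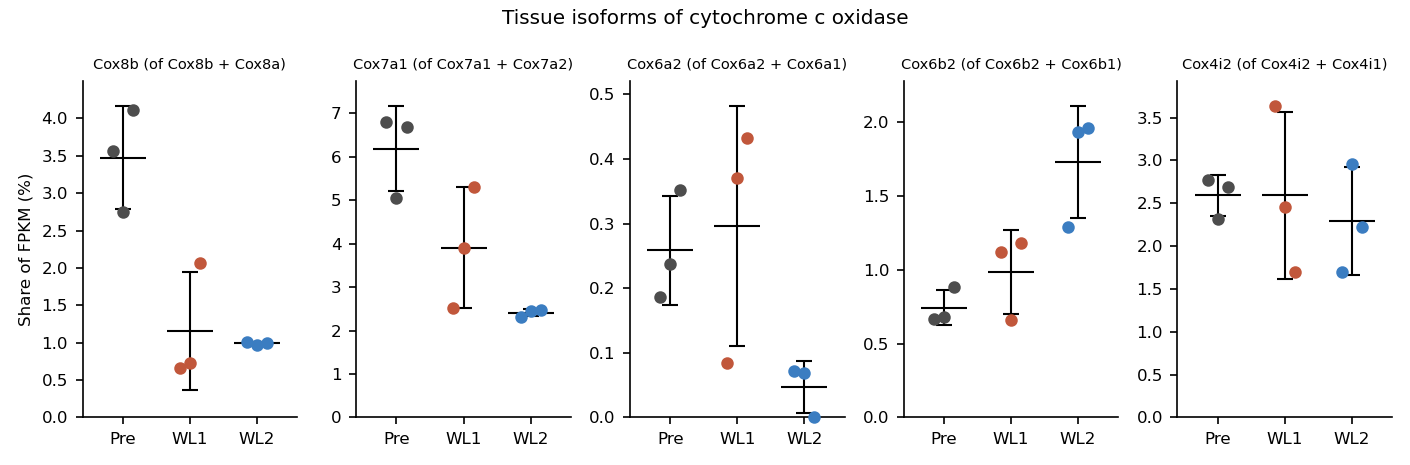
FPKM of 5 tissue isoforms of complex IV as a percent of the sum of the isoform and its partner (y axis, from 0, a scale of its own in each panel) in the 3 libraries of each phase, with points for libraries and bars for mean and SD. *Cox8b* and *Cox7a1* have lower mean shares after Pre, *Cox6b2* has a higher mean share in WL2 (1.72%), the WL2 libraries of *Cox6a2* lie below 0.1%, and *Cox4i2* shows overlapping phases.

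Markers of other tissues that express these isoforms were set beside them. Of 12 skeletal muscle genes, *Myh4* and *Myh7* had no read. *Ckm*, muscle creatine kinase, had 0, 1 and 3 reads over Pre, WL1 and WL2 and was near 0, while 9 of the 12 genes were tested. The summed FPKM of the 12 genes ranged from 41.1 to 50.6 in Pre, from 18.2 to 27.1 in WL1 and from 18.9 to 30.7 in WL2. Of the 9 tested genes, 1 fell in each comparison (11.1%). The shares of all tested genes were 4.69% for WL1 against Pre, 6.66% for WL2 against Pre and 2.37% for WL2 against WL1. *Acta1*, skeletal actin, had 23.6 ± 5.3 FPKM in Pre, 4.4 ± 2.46 in WL1 and 8.58 ± 4.74 in WL2 (SD, n = 3). Its log2 fold change was -2.41 in WL1 (adjusted p = 0.0131, edgeR), and *Pvalb*, parvalbumin, had -2.82 in WL2 (adjusted p = 0.000984, edgeR). Most tested genes of the list had a fitted level above that of Pre, 6 of 9 in WL1 with a median log2 fold change of 0.18 and 5 of 9 in WL2 with a median of 0.14. The highest in WL1 was *Myh2* (1.47, adjusted p = 0.143, edgeR). The call of *Acta1* was lost without WL1 replicate 1 or 2. Of 7 heart muscle genes, *Nppa* had no read, *Myh6* had 0, 1 and 4 reads, and the summed FPKM was between 0.555 and 2.49 in every library. Of 8 brown adipocyte genes, *Ucp1* and *Zic1* were at or near 0, *Dio2* (log2 fold change -2.49, adjusted p = 0.0329, edgeR) and *Otop1* (-2.90, adjusted p = 0.00254) fell in WL2 against Pre, and *Pdk4* rose in WL1 (1.69, adjusted p = 0.00453) and WL2 (1.36, adjusted p = 0.00794). The summed FPKM of these 8 genes ranged from 23.1 to 33.5 in Pre, from 56.3 to 92 in WL1 and from 42.3 to 70.9 in WL2, led by *Pdk4* with phase means of 21.5, 68.4 and 55.2 FPKM. Of the 6 tested genes of this list, 3 had a fitted level below Pre in WL1, with a median log2 fold change of -0.17. In WL2 5 of the 6 were below Pre, with a median of -1.53. The part of these genes' cells in the values of *Cox8b* and *Cox7a1* was not tested.

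After 2 weeks of SD fewer members differed from Pre. With the same test, 4 of the 86 fell (4.65%) against 6.66% of all tested genes, and 0 rose (2 with DESeq2) against 3.35% of all tested genes, so the share that fell was below that of all genes. The 4 were *Ndufa11*, *Uqcrq*, *Cox7a1* and *Cox8b*. At an unadjusted p under 0.05 the number was 23 of 86 in both directions together, near the share of all genes (4807 of 18510 tested). The median log2 fold change was -0.24, against 0.01 over all tested genes, and 74 members were below 0. In 13 of 86 (15.1%) every WL2 library was below every Pre library, close to the 15.8% of all tested genes. In 3, *Ndufs7*, *Uqcrc2* and *Cox6b2*, every WL2 library was above, against 15.1% of all tested genes. The medians were -0.19 in complex I, -0.05 in complex II, -0.20 in complex III, -0.32 in complex IV and -0.24 in complex V. This comparison shares its Pre libraries with the one before. The number that fell was 2 when Pre replicate 1 was omitted, and 1 when WL2 replicate 2 or WL2 replicate 3 was. With a library left out the median stayed between -0.340 and -0.134, the value without Pre replicate 1. With no scaling factors the median was -0.087, where the median of all genes was 0.158.

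Between the first and the second week the members were mostly higher. The median log2 fold change of WL2 against WL1 was 0.17, against -0.00 over all tested genes, with 74 of 86 above 0. By the same test 2 members rose (2.33%, near the 1.31% of all tested genes), and 0 fell, against 2.37% of all tested genes. At an unadjusted p under 0.05 the number was 16 of 86 in both directions together, against 3960 of the 18510 genes tested. DESeq2 called 10 members higher and 1 lower. Over all genes it called 1935 in both directions together, against 681 with edgeR. In 19 of 86 (22.1%) every WL2 library was above every WL1 library, against 13.9% of all tested genes, and in 0 every WL2 library was below, against 16.4% of all tested genes. *Ndufs7*, a core iron-sulfur subunit of complex I, had 88, 82.8 and 72.9 CPM in Pre, 62.8, 81.5 and 73.7 in WL1 and 116, 113 and 100 in WL2. Its WL2 libraries were above all others, and it rose by 0.59 ± 0.12 on the log2 scale against WL1 (SE, adjusted p = 0.0333, edgeR). Against Pre the value was 0.43 (adjusted p = 0.0538, edgeR). *Uqcrc2*, a core protein of complex III, had 117, 107 and 114 CPM in Pre, 88, 92.6 and 93.4 in WL1 and 126, 124 and 121 in WL2. The 3 phases did not overlap with each other, and it rose by 0.44 ± 0.09 against WL1 (SE, adjusted p = 0.0307, edgeR).

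The count of members that rose from WL1 to WL2 was 0 without any 1 of WL1 replicates 1, 2 and 3 or of WL2 replicates 2 and 3, and 4 without Pre replicate 2. The median log2 fold change of the members, 0.172 with all libraries, was 0.083 without WL1 replicate 1 and 0.078 without WL2 replicate 1. With other single libraries left out it reached at most 0.247. In complex I the median of the 7 core genes was 0.29 and that of the 30 accessory genes 0.19, and this difference was not tested. Of the genes not past the threshold, *Cyc1* (0.42, adjusted p = 0.0865, edgeR), *Ndufv1* (0.41, adjusted p = 0.0921) and *Atp5c1* (0.40, adjusted p = 0.0609) had WL2 libraries above all WL1 libraries. *Ndufa11* had 0.02 (adjusted p = 0.96, edgeR) and *Uqcrq* -0.01 (adjusted p = 0.983), with overlapping libraries.

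Gene length was set against the change as a check on the measurement. Over the 86 members, which share the same libraries, the correlation (Pearson's r) of log10 gene length with the log2 fold change was 0.27 for WL1 against Pre, 0.33 for WL2 against Pre and 0.22 for WL2 against WL1. The 43 members up to 1560 bases had a median of -0.41 in WL1 against Pre and the 43 longer ones of -0.37. The 76 genes of the cytosolic ribosome, whose transcripts are also short, had a median log2 fold change of 0.02 in WL1 and 0.03 in WL2 against Pre, and 0 and 1 of them passed the threshold downward. Their summed FPKM ranged from 11437 to 16214 in Pre, from 10655 to 15455 in WL1 and from 11776 to 16301 in WL2, so the phases overlapped. The part of gene length in the changes of the members was not tested.

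The 13 subunits encoded in the mitochondrial genome were also lower. Reads of these genes may be shared with nuclear copies of mitochondrial DNA, so their values are uncertain to that extent. Their summed FPKM ranged from 24572 to 27281 in Pre, from 13289 to 13975 in WL1 and from 15964 to 20251 in WL2, with no overlap between the phases. At WL1, 10 of 13 fell (76.9%, against 4.69% of all tested genes) with a median log2 fold change of -1.02. In WL2 8 of 13 fell (61.5%, against 6.66% of all tested genes) with a median of -0.61. Between WL1 and WL2 2 of 13 rose (15.4%, against 1.31% of all tested genes), *mt-Nd4* (0.57, adjusted p = 0.0297, edgeR) and *mt-Cytb* (0.58, adjusted p = 0.0322). The largest fall was that of *mt-Atp6*, a membrane subunit of complex V (log2 fold change -1.76 in WL1, adjusted p = 0.0074, edgeR). *mt-Nd4l* fell the most of those that passed in WL2 (-1.18, adjusted p = 0.0432, edgeR). Mitochondrial transcripts made up 3.15% to 3.57% of the counts in Pre, 1.86% to 2.03% in WL1 and 2.28% to 2.88% in WL2. The mean sums of both the nuclear and the mitochondrial subunits were highest before the change of diet and lowest after 1 week, and the difference in size between them was not tested.

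Of the 54 tested factors that assemble the complexes, 3 fell in WL1 (5.56%, near the 4.69% of all tested genes), and 4 fell in WL2 (7.41%, near the 6.66% of all tested genes). Of 17 tested for complex I, 1 fell in WL1, *Acad9* (log2 fold change -0.57, adjusted p = 0.0199, edgeR). It also fell in WL2 (-0.49, adjusted p = 0.0279), while *Tmem186* rose in WL2 (0.43, adjusted p = 0.0468) and against WL1 (0.51, adjusted p = 0.0457). *Sdhaf3* of complex II fell in WL1 (-0.71, adjusted p = 0.0381, edgeR), 1 of 4 tested. Of the 22 tested for complex IV, 1 fell in WL1 and 3 in WL2. *Cmc2* fell in both, by 0.71 (adjusted p = 0.0422, edgeR) and 1.07 (adjusted p = 0.00492). None of 6 for complex III and 5 for complex V passed in any of the 3 comparisons by edgeR. At an unadjusted p under 0.05 these were 1 and 3 in WL1, 2 and 0 in WL2, and 2 and 2 for WL2 against WL1.

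The carriers between the complexes are coenzyme Q and cytochrome c. Of 14 genes of cytochrome c and of coenzyme Q synthesis, *Coq2* (log2 fold change -0.70, adjusted p = 0.00644, edgeR) and *Coq7* (-0.73, adjusted p = 0.0304) fell in WL1. *Coq7* (-0.79, adjusted p = 0.0161) and *Cycs*, cytochrome c itself (-0.61, adjusted p = 0.0342), fell in WL2, and *Coq2* rose from WL1 to WL2 (0.47, adjusted p = 0.0494). The falls were 14.3% of this list in WL1 and in WL2, against 4.69% and 6.66% of all tested genes. The rise was 7.14%, against 1.31% of all tested genes. Of 14 enzymes of the tricarboxylic acid cycle, which feeds NADH and succinate to complexes I and II, 4 fell in WL1, with a median of -0.31. That was 28.6%, against 4.69% of all tested genes. *Cs*, citrate synthase, fell the most (-0.62, adjusted p = 0.00603, edgeR). None of the 14 passed in WL2 against Pre by edgeR (6 did at an unadjusted p under 0.05). From WL1 to WL2 *Idh2* (0.55, adjusted p = 0.0421, edgeR) and *Idh3g* (0.45, adjusted p = 0.0456) rose, 14.3% against 1.31% of all tested genes.

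Carriers, protein import and the mitochondrial ribosome were counted in the same way. Of 12 carriers of the inner and outer membrane, 4 fell in WL1 and 3 in WL2 (33.3% and 25%, against 4.69% and 6.66% of all tested genes). *Slc25a10*, the dicarboxylate carrier, had the largest change with a log2 fold change of -1.53 in WL1 (adjusted p = 0.000262, edgeR) and -1.76 in WL2 (adjusted p = 1.51e-05). Of 22 tested genes of protein import, 4 fell in WL1 (18.2%), led by *Timm10* (-0.77, adjusted p = 0.0437, edgeR). At WL2 *Timm23* fell (-0.50, adjusted p = 0.0229) and *Timm21* rose (0.68, adjusted p = 0.00593), 4.55% in each direction and near the shares of all tested genes. Of 77 tested genes of the mitochondrial ribosome, 8 fell in WL1 (10.4%) and 3 in WL2 (3.9%, below the 6.66% of all tested genes), led in both by *Mrps6* (-0.79, adjusted p = 0.00497 in WL1 and -0.54, adjusted p = 0.0197 in WL2, edgeR).

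Genes that control transcription of the respiratory chain were counted next. Of 17 tested, 0 passed in WL1 by edgeR (1 did at an unadjusted p under 0.05), and the median log2 fold change was 0.06. *Ppargc1a*, the coactivator that promotes mitochondrial biogenesis, had 129, 87 and 132 reads in the whole of Pre, WL1 and WL2 and a log2 fold change of -0.62 in WL1 (adjusted p = 0.213, edgeR). *Nrf1*, whose motif was searched above, had 0.04 (adjusted p = 0.869), *Gabpa* 0.17 (adjusted p = 0.354) and *Tfam*, the factor that packages and transcribes mitochondrial DNA, -0.09 (adjusted p = 0.648). At WL2 *Esrra*, an estrogen-related receptor, fell (-0.55, adjusted p = 0.0274, edgeR) and *Sirt1*, a deacetylase, rose (0.46, adjusted p = 0.0439). That was 5.88% in each direction, against 6.66% lower and 3.35% higher of all tested genes. Of the 9 omissions of a single library, 5 ended the call of *Esrra* and 8 that of *Sirt1*. Of the 47 calls in all lists for WL1 against Pre, 19 held with any 1 library left out, 25 were lost without Pre replicate 1 and 27 without WL1 replicate 1. The calls of *mt-Atp6*, *Cs*, *Coq2*, *Slc25a10*, *Mrps6*, *Retn* and *Pdk4* held there, and those of *Acad9*, *Sdhaf3*, *Cmc2*, *Coq7*, *Timm10* and *Gpnmb* were lost when either of these libraries was left out. Of the 41 calls for WL2 against Pre 16 held with any 1 library left out, among them *Cmc2*, *Slc25a10*, *Timm21*, *Lep*, *Otop1* and *Pvalb*, and of the 12 for WL2 against WL1 2 did, *Lep* and *Pvalb*. *Ppargc1a*, *Nrf1*, *Gabpa* and *Tfam* were picked for the text with their values known.

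The adipocyte markers moved with the members in part. Of the 14, 4 fell in WL1 (28.6%, against 4.69% of all tested genes), with a median log2 fold change of -0.46, near that of the members. At WL2 3 fell (21.4%, against 6.66% of all tested genes) and 2 rose (14.3%, against 3.35%), with a median of -0.09. *Adipoq* had -0.45 in WL1 (adjusted p = 0.165, edgeR) and 0.21 in WL2 (adjusted p = 0.508). *Retn*, resistin, had the largest fall in WL1 (-1.86, adjusted p = 0.00197, edgeR), *Lep*, leptin, in WL2 (-2.03, adjusted p = 2.03e-05), and *Cfd*, adipsin, the largest rise in WL2 (1.61, adjusted p = 0.0299). All 12 macrophage markers were above 0 in WL1, with a median of 1.34, led by *Gpnmb* (2.29, adjusted p = 0.0375, edgeR), and all 12 were below 0 for WL2 against WL1, with a median of -1.10. The defining B cell genes summed to 560 to 1345 FPKM in Pre and to 78.7 to 143 in the later libraries. Of the other cell type lists, smooth muscle and pericytes had 2 of 8 genes lower in both WL1 and WL2 than in Pre. That was 25%, against 4.69% and 6.66% of all tested genes. The sum of this list ranged from 243 to 284, from 141 to 174 and from 131 to 188 FPKM in the 3 phases. Fibroblasts (483 to 573, 425 to 572 and 532 to 587 FPKM), endothelium (420 to 658, 328 to 651 and 460 to 599) and mesothelium (11.2 to 109, 13 to 64.9 and 70.5 to 203) had 1 call in all, *Dcn* of fibroblasts, which was higher in WL2 than in Pre. Hepatocyte genes summed to at most 52.8 FPKM in any library, T cell genes to at most 24, testis genes to at most 2.74 and epididymis genes to at most 0.218, and of these lists 2 hepatocyte genes passed, both lower in WL2 than in Pre. The part of these cell types in the values of the members was not tested.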

How the data were processed

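RNA sequencing of epididymal adipose tissue gave 9 libraries, 3 each of Pre, WL1 and WL2, grouped by the sample labels. The authors deposited a gene table of unnormalized whole-number counts and a table of FPKM, scaled by gene length and library total. The submitters' processing notes name HISAT2, HISAT, TopHat2, CASAVA and the build GRCm38 (mm10), without versions or roles. Whether counting used strand was not given in the sources used here. Only 3 of 89 members had a start within 1000 bases of RefSeq GRCm38.p6, so no coordinate of the table is given.

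The 18510 genes that reached 0.5 CPM in 1 library or more were tested with edgeR 4.0.16 in R 4.3.3 (quasi-likelihood functions glmQLFit and glmQLFTest), scaled by TMM, in a single model of all 9 libraries with no covariate (common dispersion 0.0478), with Benjamini-Hochberg adjustment over these genes and a threshold of 0.05. CPM in the text are TMM-scaled and serve for changes of 1 gene, and FPKM serve for levels between genes. The fitting was tested on simulated counts. The tests were repeated with DESeq2 1.42.0, with limma 3.58.1 on the FPKM (log2 after adding 1 or 0.1), without a minimum CPM or with that minimum in 3 libraries, with RLE, upper-quartile or no scaling factors, with a block for replicate number, on 2 phases at a time, and with each library omitted. Tables and plots were made with Python 3.11.15, pandas 2.3.3 and matplotlib 3.10.9. With 16434450 to 22729072 counts per library, genes near 0.5 CPM have wide counting error. The replicates of each phase differed beyond the noise of counting (chi-square over degrees of freedom between 9.13 and 48.9), so none was a copy of another.

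Named members are the complex II genes and *Cyc1*, the most abundant member per length of each complex, the isoform pairs of complexes IV and V, and in each complex and comparison up to 3 members past the threshold with the largest rise and up to 3 with the largest fall. Of each other list, the member past the threshold with the largest rise and the one with the largest fall are named. Other genes were named after their values were seen. The members and lists were chosen with earlier results of these data known.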

Additional observations from a re-analysis of the deposited data

How the results depend on the processing

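The falls of *Ndufa11* held under all 19 alternatives in both comparisons with Pre. The numbers of calls moved with tool and library, while the median change of the members kept its sign throughout. The members lower in WL1 than in Pre, 13 in the report, were 20 with the CPM minimum in 3 libraries, 31 with DESeq2, 5 without scaling factors, 4 with the replicate block, 3 with the 2 phases alone and 1 to 20 with a library left out. Those lower in WL2 than in Pre (4) were 7 with DESeq2, 2 with the block and 1 to 5 with a library left out, and those higher (0) were 2 with DESeq2, no scaling or upper-quartile factors, 1 with limma at either pseudocount and 0 to 1 with a library left out. From WL1 to WL2 the members that rose (2) were 10 with DESeq2, 4 with upper-quartile factors, 0 with the block and 0 to 4 with a library left out, and those that fell (0) were 1 with DESeq2. Over all genes, the 1350 calls for WL1 against Pre were 2344 with DESeq2, 844 with the block and 512 to 1500 with a library left out. The 1853 for WL2 against Pre were 743 to 1688 with a library left out. The 681 for WL2 against WL1 were 1668 without a CPM minimum, 1935 with DESeq2, 330 with the block, 1053 with the 2 phases alone and 37 to 1351 with a library left out. The cause of these moves was not tested. No pairing of the libraries by replicate number was seen. The correlations of same-numbered libraries were between -0.233 and 0.091, and those of the other pairs between -0.186 and 0.230. With 3 libraries in a phase these values cannot decide whether the numbers pair the libraries. If they do not, the block spends degrees of freedom on a shared number only. Leaving out a library leaves 2 in its phase.

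Of 105 pairs of a named member and a comparison, 19 passed the threshold, and over their 361 alternatives 235 still passed, 126 did not and 0 had another sign. Of the 1634 alternatives of the 86 other pairs, 35 passed, among them *Cox6b2* (6) and *Ndufs7* (4) for WL2 against Pre, *Sdhc* (5) and *Uqcrc2* (5) for WL1 against Pre and *Atp5c1* (5) for WL2 against WL1. Of these 86 pairs, 24 had another sign under some alternative, without a call there. Without scaling factors, WL2 against Pre became 0.059 for *Cox8a*, 0.072 for *Atp5g2*, 0.063 for *Cox7b*, 0.14 for *Atp5g1* (0.014 with upper-quartile factors), 0.021 for *Ndufa4l2*, 0.028 for *Ndufv1*, 0.097 for *Atp5c1* and 0.078 for *Cox7a2l*, and WL1 against Pre became 0.049 for *Cox6a2*. *Cox6b2* for WL1 against Pre became -0.021 with the CPM minimum in 3 libraries, -0.011 with DESeq2, -0.007 with RLE factors, -0.026 with upper-quartile factors, -0.0012 with the block, -0.016 and -0.03 with limma and -0.0092 with the 2 phases alone. *Uqcrq* for WL2 against WL1 became 0.011 with the CPM minimum in 3 libraries, 0.0011 with DESeq2 and with RLE factors, 0.039 without scaling, 0.046 with upper-quartile factors and 0.0069 and 0.0071 with limma, and *Cox4i2* became -0.00044 without a CPM minimum. With a library left out, WL1 against Pre ranged from -0.24 to 0.045 for *Cox7b*, -0.32 to 0.049 for *Ndufa4l2*, -0.37 to 0.43 for *Cox6a2*, -0.21 to 0.18 for *Cox6b2* and -0.019 to 0.20 for *Cox7a2l*. WL2 against Pre then ranged from -0.24 to 0.058 for *Cox8a*, -0.22 to 0.027 for *Atp5g2*, -0.021 to 0.17 for *Sdhb*, -0.21 to 0.079 for *Cox7b*, -0.19 to 0.17 for *Atp5g1*, -0.33 to 0.00069 for *Ndufa4l2* and -0.21 to 0.0014 for *Cox7a2l*. WL2 against WL1 ranged from -0.055 to 0.17 for *Cox6b1*, -0.042 to 0.20 for *Atp5g2*, -0.088 to 0.12 for *Cox7b*, -0.20 to 0.79 for *Cox8b*, -0.18 to 0.18 for *Ndufa4l2*, -0.24 to 0.19 for *Cox4i2*, -0.037 to 0.28 for *Ndufa2*, -0.051 to 0.067 for *Ndufa11*, -0.037 to 0.24 for *Uqcr10* and -0.15 to 0.088 for *Uqcrq*.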
